A study of Homo sapiens with 9 samples.

Results

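The insulin-like growth factor (IGF) binding proteins, the pappalysins and the IGF receptors were followed as 10 genes, IGFBP2, IGFBP3, IGFBP4, IGFBP5, IGFBP6, IGFBP7, PAPPA, PAPPA2, IGF1R and IGF2R, out of 70116 gene IDs in a table of raw read counts. The group had been chosen from the levels of these genes in the same 9 libraries. Their differences between groups are therefore given as a description, without p-values. Where a member is said to be called or not called, this gives only its side of a threshold and is no independent test. All 10 were found in the table, 8 passed the low-count filter, and IGFBP2 and IGFBP3 did not.

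The libraries came from U2OS, an established human osteosarcoma line. The vehicle group held 3 libraries of wild-type cells given vehicle, the wild-type drug group 3 of wild-type cells given palbociclib for 4 days, and the knockout drug group 3 of PERK KO cells given the same drug. Palbociclib inhibits the cell cycle kinases CDK4 and CDK6. The knockout was made in U2OS with CRISPR/Cas9 against PERK (gene EIF2AK3), a stress-sensing kinase of the endoplasmic reticulum. Whether it is 1 clone or a pool is not given in the sources used here. Knockout cells without the drug were not analysed here, so the genotypes were compared on the drug only. The labels number the libraries of each group as sets 1, 2 and 3 but do not say that these were separate cultures, so the spread between them may be technical.

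IGF binding proteins are secreted carriers that hold IGF1 and IGF2 outside the cell and control how much ligand reaches the receptor. The pappalysins are secreted metalloproteinases that cut binding proteins and release the ligand: PAPPA cuts IGFBP4 and IGFBP5, and PAPPA2 cuts IGFBP3 and IGFBP5. IGF1R is the receptor tyrosine kinase that passes the signal into the cell, while IGF2R, the cation-independent mannose 6-phosphate receptor, takes up IGF2 for degradation and carries lysosomal enzymes. In bone, IGFs are stored in the matrix and osteoblasts make several of the binding proteins.

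Promoters are shown for the pair of genes with the largest differences between groups, IGFBP4 and PAPPA2, each beside a relative that differed less. The relatives are IGFBP6, another binding protein, and PAPPA, the other pappalysin. Each window runs from 250 bases before to 50 after the annotated start, 5′ to 3′ on the gene's strand (plus for all 4), from RefSeq on GRCh38.p14. Capitals mark matches to any of 8 short motifs on either strand. The windows are IGFBP4 at chr17:40443200-40443499, IGFBP6 at chr12:53097417-53097716, PAPPA2 at chr1:176462925-176463224 and PAPPA at chr9:116153541-116153840.
IGFBP4: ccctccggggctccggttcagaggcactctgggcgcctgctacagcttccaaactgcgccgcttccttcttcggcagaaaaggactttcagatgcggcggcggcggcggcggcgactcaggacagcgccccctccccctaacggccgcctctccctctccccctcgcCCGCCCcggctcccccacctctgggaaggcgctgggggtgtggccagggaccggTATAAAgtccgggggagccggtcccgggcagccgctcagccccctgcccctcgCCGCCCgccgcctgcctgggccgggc
IGFBP6: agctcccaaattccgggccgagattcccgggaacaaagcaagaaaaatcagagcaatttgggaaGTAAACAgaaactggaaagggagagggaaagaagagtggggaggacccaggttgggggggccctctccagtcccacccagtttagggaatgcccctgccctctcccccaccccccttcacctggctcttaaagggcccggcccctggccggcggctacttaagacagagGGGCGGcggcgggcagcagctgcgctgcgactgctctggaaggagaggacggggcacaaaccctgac
PAPPA2: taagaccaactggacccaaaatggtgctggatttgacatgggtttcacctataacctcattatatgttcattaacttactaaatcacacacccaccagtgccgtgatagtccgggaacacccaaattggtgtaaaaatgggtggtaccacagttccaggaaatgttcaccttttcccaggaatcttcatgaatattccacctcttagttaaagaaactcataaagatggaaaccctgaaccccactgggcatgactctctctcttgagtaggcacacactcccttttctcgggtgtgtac
PAPPA: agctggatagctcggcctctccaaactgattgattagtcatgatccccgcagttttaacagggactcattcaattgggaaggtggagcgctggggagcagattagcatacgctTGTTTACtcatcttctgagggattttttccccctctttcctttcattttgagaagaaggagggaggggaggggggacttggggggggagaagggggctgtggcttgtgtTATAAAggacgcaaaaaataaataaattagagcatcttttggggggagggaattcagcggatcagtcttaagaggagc

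The motifs searched were TATAAA (the TATA box, in 11.5% of 35116 promoters of this length), GGGCGG (the GC box, 45.0%), CACGTG (an E-box, 7.26%), TGACGTCA (the cAMP response element, 1.85%), TGANTCA (the AP-1 site, 7.71%), TGATGNAA (a core letter pattern of the amino acid response element bound by ATF4, 3.62%), GTAAACA (a FOXO site, 3.42%) and TTTNGCGC (an E2F site, 1.79%). The IGFBP4 window held a TATA box 29 bases before the start and GC boxes at -83 and 25, and 74.0% of its bases were G or C. The PAPPA2 window held no match to these letters and 44.0% G or C, against a median of 58.7% over all promoters searched. The IGFBP6 window held a FOXO match at -186 and a GC box at -17, and the PAPPA window a TATA box at -28 and a FOXO match at -137. Of the other members with a window, IGF2R held 6 GC boxes and 3 E-boxes, IGF1R 2 GC boxes and an E2F match, IGFBP3 2 GC boxes, IGFBP2 1 and IGFBP5 none. A match is a run of letters and not a measured binding site.

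Library totals ran from 33674039 to 42577874 counts, and 19408 genes were tested. Levels are CPM, counts scaled to library size with TMM factors (0.9769 to 1.015), given for sets 1, 2 and 3 in that order, with means ± SD over n = 3. Differences are log2 fold changes ± SE from edgeR, and a gene is called where its Benjamini-Hochberg adjusted p over all 19408 genes was under 0.05. The mRNA of EIF2AK3, the targeted gene, was lower in the knockout drug group (19.7, 18.7 and 17.8 CPM) than in the wild-type drug group (35.7, 36.8 and 31.8 CPM), at -0.89 ± 0.068 (edgeR adjusted p = 5.98e-09), and was not absent. Of 8 osteosarcoma-line markers 6 reached 1 CPM. Among them COL1A1, SPARC and VIM were abundant, while COL1A2 stood at 1.42, 2.19 and 2.88 mean CPM in the vehicle, wild-type drug and knockout drug groups. TWIST1 did not reach 1 CPM, and SP7 was at 0 in every library. No haematopoietic marker reached 1 CPM in any library. In bulk RNA, fewer cells of a type and less RNA per cell cannot be told apart.

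In the comparison of palbociclib with vehicle in wild-type cells, 5 of the 8 tested members were called higher (IGFBP4, IGFBP6, PAPPA2, IGF1R and IGF2R) and 0 lower. Over all genes 21.3% were called higher and 22.3% lower. The median difference of the 8 was 0.58, against -0.02 over all genes tested. Between genotypes on the drug, 2 of 8 were called higher (IGFBP4 and IGFBP6) and 1 lower (PAPPA2), against 14.9% and 13% of all genes, with a median of -0.03 against 0.01. Between the knockout drug group and the vehicle group, 6 were called higher, the 5 named first and IGFBP7, and 0 lower, against 25.7% and 26% of all genes, with a median of 0.62 against -0.01. These counts come from the model that does not pair libraries by set number. With that pairing IGFBP5 and IGFBP7 were also called higher for the drug, IGFBP5 for knockout on drug against vehicle, and IGF2R was called lower between genotypes. The shares above are from the unpaired model, and no share of all genes is given for the paired one. The counts describe values that chose the members. The comparisons share groups, so their values are set side by side and not related to each other.

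**Figure D1:**
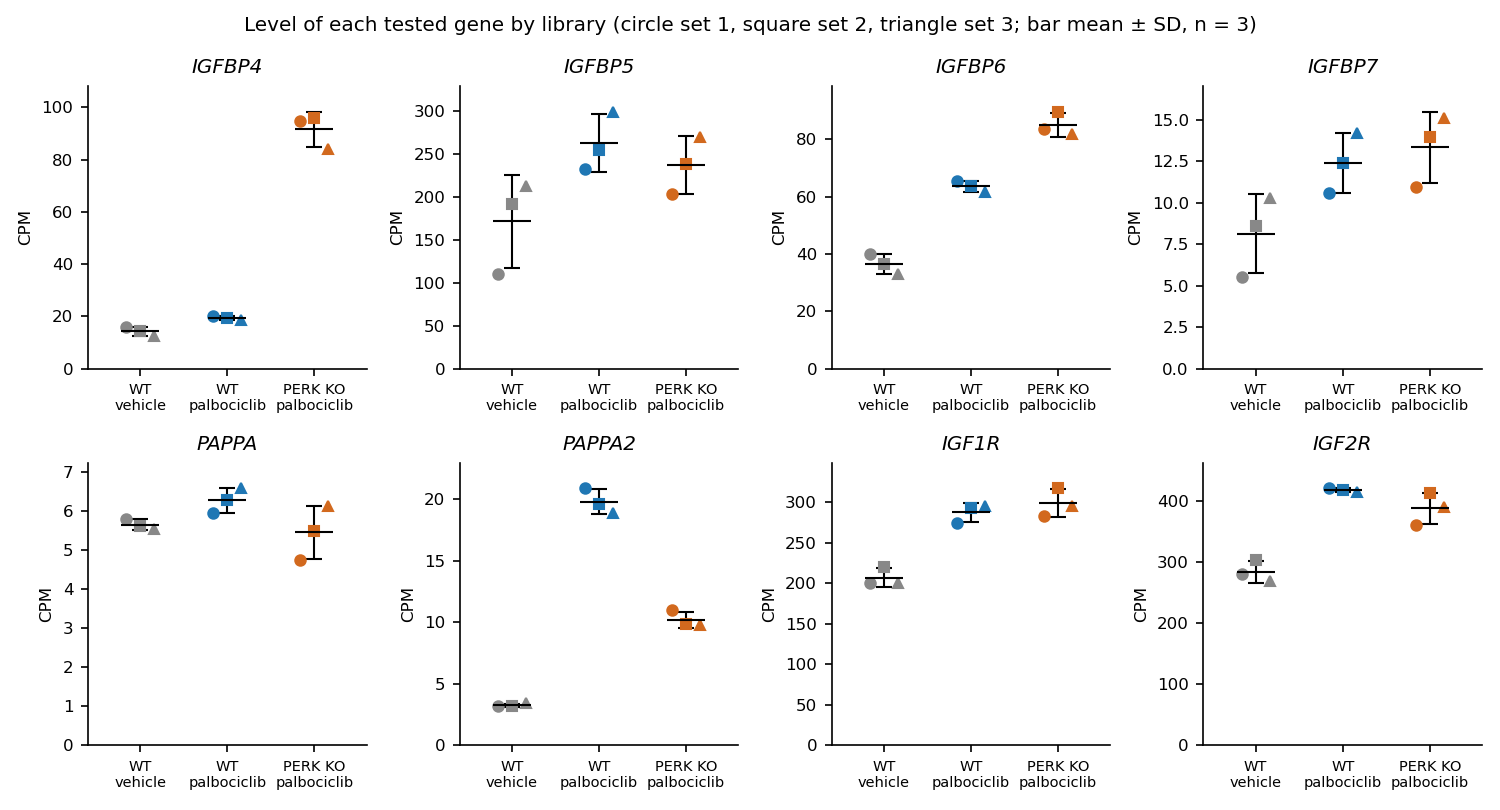
CPM of each tested member (linear vertical axes from 0, a separate scale for each gene) in the 9 libraries, by group; circles, squares and triangles are sets 1, 2 and 3, and bars show the mean ± SD (n = 3). IGFBP4 stands apart in the knockout drug group (84.0 to 96.1 CPM, against 12.3 to 20.2 in all wild-type libraries), and PAPPA2 is highest in the wild-type drug group (18.9 to 20.9 CPM).

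IGFBP4 (ENSG00000141753.7, chromosome 17, 40443461 to 40457731, plus strand) encodes a binding protein that holds IGFs away from their receptor until it is cut. It stood at 16.0, 14.4 and 12.3 CPM in the vehicle group (14.2 ± 1.8), at 20.2, 19.3 and 18.6 in the wild-type drug group (19.4 ± 0.83), and at 95.0, 96.1 and 84.0 in the knockout drug group (91.7 ± 6.7). No library of one group overlapped another, and the knockout libraries stood far above both wild-type groups. The difference was 0.44 ± 0.083 for the drug, 2.24 ± 0.077 (4.74-fold) between genotypes on the drug, and 2.68 ± 0.079 (6.43-fold) between the knockout drug group and vehicle, and all 3 were called. Ranked from the highest of the 19408 tested genes, IGFBP4 was in place 3141 for the drug and in place 15 between genotypes.

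Most genes near IGFBP4 were also higher in the knockout. The other 185 tested genes within 5 Mb had a median of 0.30 between genotypes, with medians of 0.32 over 53 genes before it, 6 of them below 0, and 0.30 over 132 after it, 16 of them below 0. IGFBP4 minus the median of all 185 was 1.94. Single genes of this window came closer to IGFBP4. The largest were TUBG2, 2.22 Mb after it, at 1.98, ZNF385C at 1.44 and DHX58 at 1.06, picked here for their size and given without SE or level. Of the nearest tested protein-coding genes, TOP2A, 25511 bases before, differed by 0.23 ± 0.079, RARA by 0.08 ± 0.066 (not called), CDC6 by 0.48 ± 0.079, and SMARCE1 by 0.52 ± 0.12. TNS4, 18097 bases after and at 0.621 CPM, differed by 0.08 ± 0.32, and KRT222, at 0.521 CPM, by -0.34 ± 0.32, both not called. For the drug the 185 neighbours had a median of -0.04, and IGFBP4 minus that median was 0.48. Neighbouring genes that moved with the genotype were measured here in counts of RNA only, and their part in the IGFBP4 value was not tested beyond this subtraction.

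**Figure D2:**
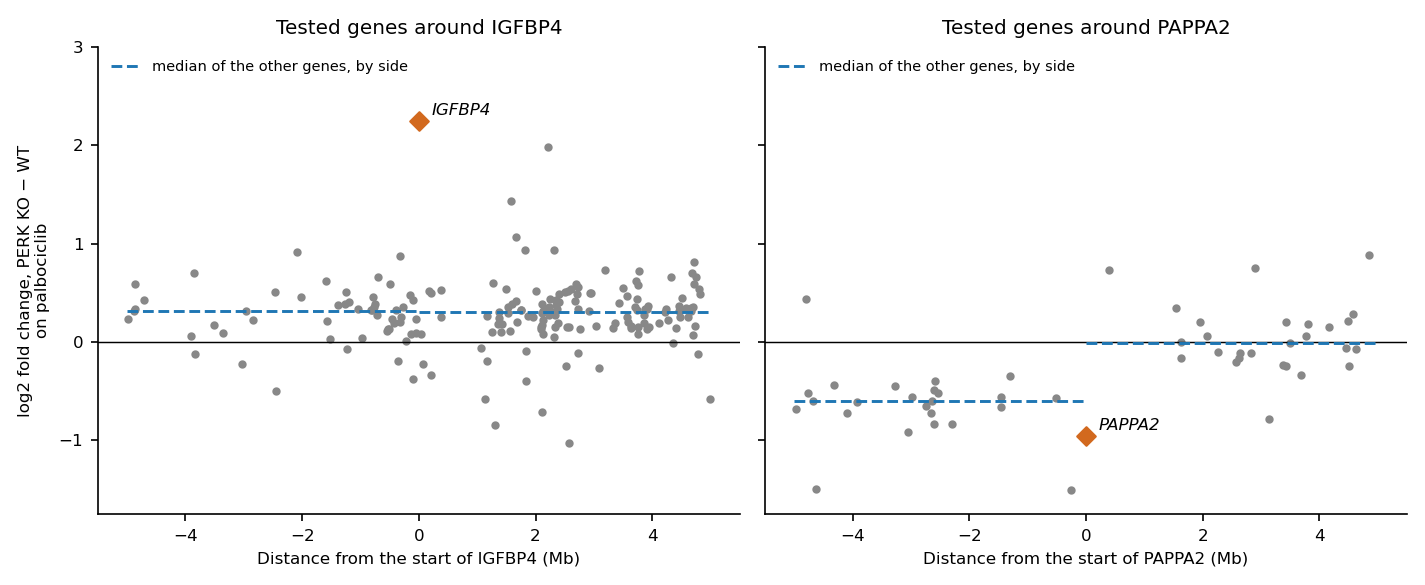
Log2 fold change between knockout and wild-type cells on palbociclib (vertical axis) of each tested gene within 5 Mb of IGFBP4 (left) and PAPPA2 (right), against distance from the start of that gene in Mb; grey points are other genes, dashed lines their medians on each side, diamonds the named gene. IGFBP4, at 2.24, lies above every neighbour, the next being TUBG2 at 1.98. The genes before PAPPA2 have a median of -0.60 and those after it -0.01.

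IGFBP6 (ENSG00000167779.9, chromosome 12, 53097436 to 53102345, plus strand) encodes a binding protein that prefers IGF2 to IGF1. Its CPM were 39.8, 36.4 and 33.1 with vehicle (36.4 ± 3.4), 65.3, 63.7 and 61.6 in wild-type cells on the drug (63.6 ± 1.8) and 83.4, 89.6 and 81.7 in knockout cells on the drug (84.9 ± 4.1). The 3 groups formed separate steps, each above the last in all libraries. The drug difference was 0.80 ± 0.062 (1.74-fold), the difference between genotypes 0.42 ± 0.060 (1.34-fold), and that between knockout on drug and vehicle 1.22 ± 0.061 (2.33-fold), all called. Its 230 tested neighbours within 5 Mb had a median of 0.02 between genotypes.

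IGFBP5 (ENSG00000115461.5, chromosome 2, 216672105 to 216695525, minus strand), a binding protein that also attaches to bone matrix, had the most counts of the binding proteins. Its CPM were 109.7, 192 and 212 with vehicle (171 ± 54), 233, 255 and 299 in the wild-type drug group (262 ± 34) and 203, 238 and 269.7 in the knockout drug group (237 ± 33). The vehicle and wild-type drug libraries did not overlap, although the highest vehicle library lay close below the lowest drug library, and the knockout libraries overlapped both groups. The differences, 0.61 ± 0.26 for the drug, -0.15 ± 0.26 between genotypes and 0.47 ± 0.26 for knockout on drug against vehicle, were not called. With set number as a block the first and the last were called, at 0.65 ± 0.15 and 0.50 ± 0.15. Without vehicle library 1, the lowest of the 9, they were 0.37 ± 0.15 and 0.23, both not called. An antisense gene shares 298 of the 6442 exon bases of IGFBP5.

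IGFBP7 (ENSG00000163453.11, chromosome 4, 57030773 to 57110385, minus strand) encodes a secreted protein related to the binding proteins that binds IGFs weakly and has been tied to senescence. Its CPM were 5.54, 8.59 and 10.3 with vehicle (8.14 ± 2.4), 10.6, 12.4 and 14.2 with the drug in wild-type cells (12.4 ± 1.8) and 11.0, 14.0 and 15.1 in knockout cells (13.4 ± 2.1). Both drug groups lay above every vehicle library, by a narrow margin, and overlapped each other. The drug difference of 0.61 ± 0.23 was not called, the genotype difference of 0.10 ± 0.22 was not called, and knockout on drug against vehicle, 0.72 ± 0.22, was called. The set block gave 0.62 ± 0.087 for the drug, which was called. Without vehicle library 1 the drug value was 0.40 ± 0.15, and the last call was lost without vehicle library 2 (0.76), knockout library 2 (0.68) or knockout library 3 (0.62). IGFBP7 shares 270 of its 1930 exon bases with POLR2B on the opposite strand, and no source names the strand setting of the counting, so some of its reads may belong to that much more abundant gene (95029 counts in all, against 3871 for IGFBP7).

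IGFBP5 and IGFBP7 followed the set numbers in the same way, on different chromosomes. Both were lowest in set 1 and highest in set 3 in each of the 3 groups. In the model with the set as a block, set 3 stood above set 1 by 0.56 for IGFBP5 (1.47-fold) and 0.57 for IGFBP7 (1.48-fold), against -0.21 for IGFBP4 and -0.12 for IGFBP6. Of the tested members, the difference among sets was called for IGFBP7 and IGFBP4 only, and not for IGFBP5. Pearson's r of the log2 CPM of IGFBP5 and IGFBP7 was 0.95 over the 9 libraries, and 0.98 after group means were removed. IGFBP4 and IGFBP6 deviated the other way. After the same step r against IGFBP5 was -0.86 for IGFBP4 and -0.80 for IGFBP6, and against IGFBP7 it was -0.88 and -0.76. These 9 points share libraries and sets, and what the sets stand for is not given in the sources used here.

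**Figure D3:**
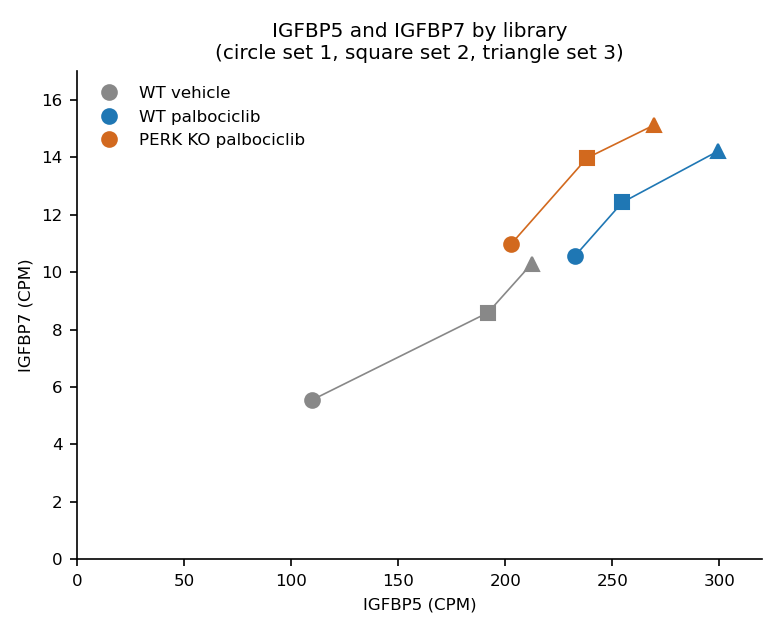
IGFBP7 against IGFBP5 in CPM, 1 point per library, with colours for the 3 groups and symbols for the sets; lines join the libraries of a group. In each group set 1 lies lowest and set 3 highest on both axes, from 109.7 and 5.54 CPM in vehicle set 1 to 299 and 14.2 CPM in wild-type drug set 3.

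IGFBP2 (ENSG00000115457.10, chromosome 2, 216632828 to 216664436, plus strand) and IGFBP3 (ENSG00000146674.16, chromosome 7, 45912245 to 45921874, minus strand) are major carriers of IGFs in blood and tissue fluid. IGFBP2 had 3 counts in all 9 libraries, with 0, 0 and 0 in the vehicle group, 2, 0 and 0 in the wild-type drug group and 1, 0 and 0 in the knockout drug group. A library with 0 counts allows up to 3 counts, or 0.0705 to 0.0891 CPM at these depths, for counting error only. IGFBP3 had 4, 2 and 5 counts with vehicle, 3, 5 and 4 in wild-type cells on the drug and 1, 1 and 2 in knockout cells on the drug. At such levels no fold is given. IGFBP2 lies 7669 bases from IGFBP5 on chromosome 2, on the opposite strand, so these neighbours stood at opposite ends of the family in counts.

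PAPPA2 (ENSG00000116183.11, chromosome 1, 176463171 to 176845605, plus strand) showed the largest drug difference of the 8 tested members. Its CPM were 3.16, 3.15 and 3.39 with vehicle (3.23 ± 0.13), 20.9, 19.6 and 18.9 in wild-type cells on the drug (19.8 ± 1.0) and 11.0, 9.82 and 9.79 in knockout cells on the drug (10.2 ± 0.67). The 3 groups did not overlap, and the knockout libraries lay between the other groups. The drug difference was 2.61 ± 0.094 (6.12-fold), in place 27 from the highest of 19408 genes. Between genotypes it was -0.96 ± 0.082 (1.94-fold lower in the knockout), and knockout on drug against vehicle stood at 1.66 ± 0.097 (3.15-fold). All 3 differences were called.

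The genes before PAPPA2 on the chromosome were mostly lower in the knockout, and those after it were not. The 24 tested genes within 5 Mb before PAPPA2 had a median of -0.60 between genotypes, 23 of them below 0, while the 27 after it had a median of -0.01, 14 of them below 0. PAPPA2 minus the first median was -0.36, and minus the second -0.95. COP1-DT, the nearest tested gene before it, differed by -1.51 between genotypes and by 1.83 for the drug, the same directions as PAPPA2 (it was singled out after its values were seen). Other genes on this side had the same directions, among them DNM3 at -1.49 and 1.37. No SE or level is given here for COP1-DT or DNM3. COP1, the nearest tested protein-coding gene before PAPPA2, differed by -0.57 ± 0.052, MRPS14 by -0.56 ± 0.077 and KIAA0040 by -0.35 ± 0.11. ASTN1, 11697 bases after PAPPA2, was higher at 0.73 ± 0.063. For the drug in wild-type cells the medians before and after PAPPA2 were -0.08 and 0.04, and 16 of the 24 genes before it were below 0. The part of this regional difference in the PAPPA2 value of the knockout was not tested beyond these subtractions.

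PAPPA (ENSG00000182752.10, chromosome 9, 116153804 to 116402322, plus strand) was not called in any comparison. Its CPM were 5.80, 5.60 and 5.53 with vehicle (5.64 ± 0.14), 5.95, 6.28 and 6.58 in wild-type cells on the drug (6.27 ± 0.31) and 4.75, 5.49 and 6.12 in knockout cells on the drug (5.45 ± 0.69). The wild-type drug libraries lay just above the vehicle libraries, and the knockout libraries overlapped both. The differences were 0.15 ± 0.11 for the drug, -0.20 ± 0.11 between genotypes and -0.05 ± 0.11 for knockout on drug against vehicle. PAPPA-AS1, which shares 2450 of the 11573 exon bases of PAPPA on the opposite strand, had 0 counts in the 9 libraries.

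Between the pappalysins the balance of mRNA turned. Per exon length, PAPPA2 made up 36.6, 37.3 and 39.3% of the sum of PAPPA and PAPPA2 in the vehicle group (37.8 ± 1.4%). The shares were 78.8, 76.8 and 75.3% in wild-type cells on the drug (76.9 ± 1.8%) and 71.0, 65.5 and 62.9% in knockout cells on the drug (66.4 ± 4.1%). PAPPA was thus the more abundant in every vehicle library and PAPPA2 in every library on palbociclib. The shares of the knockout libraries all lay below those of the wild-type drug libraries.

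IGF1R (ENSG00000140443.15, chromosome 15, 98648539 to 98964530, plus strand) stood at 200.3, 221 and 200.3 CPM with vehicle (207 ± 12), at 274, 294 and 296 in wild-type cells on the drug (288 ± 12) and at 284, 318 and 295 in knockout cells on the drug (299 ± 17). Both drug groups lay above all vehicle libraries and overlapped each other. The difference was 0.47 ± 0.055 for the drug (1.39-fold) and 0.53 ± 0.055 for knockout on drug against vehicle (1.44-fold), both called, and 0.05 ± 0.054 between genotypes, not called.

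IGF2R (ENSG00000197081.16, chromosome 6, 159969099 to 160113507, plus strand) had 280.0, 304 and 268 CPM with vehicle (284 ± 18), 421, 418 and 415 in wild-type cells on the drug (418 ± 3.0) and 361, 413 and 390.3 in knockout cells on the drug (388 ± 26). The groups did not overlap, but the highest knockout library lay just under the lowest wild-type drug library. The drug difference was 0.56 ± 0.055 (1.47-fold) and that of knockout on drug against vehicle 0.45 ± 0.055 (1.37-fold), both called. Between genotypes it was -0.11 ± 0.055, not called, and with the set block -0.11 ± 0.040, called lower. Per exon length the ratio of IGF2R to IGF1R was 1.07 ± 0.023 with vehicle, 1.14 ± 0.055 in wild-type cells on the drug and 1.01 ± 0.019 in knockout cells on the drug, and it ran from 0.995 to 1.20 over the 9 libraries.

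**Figure D4:**
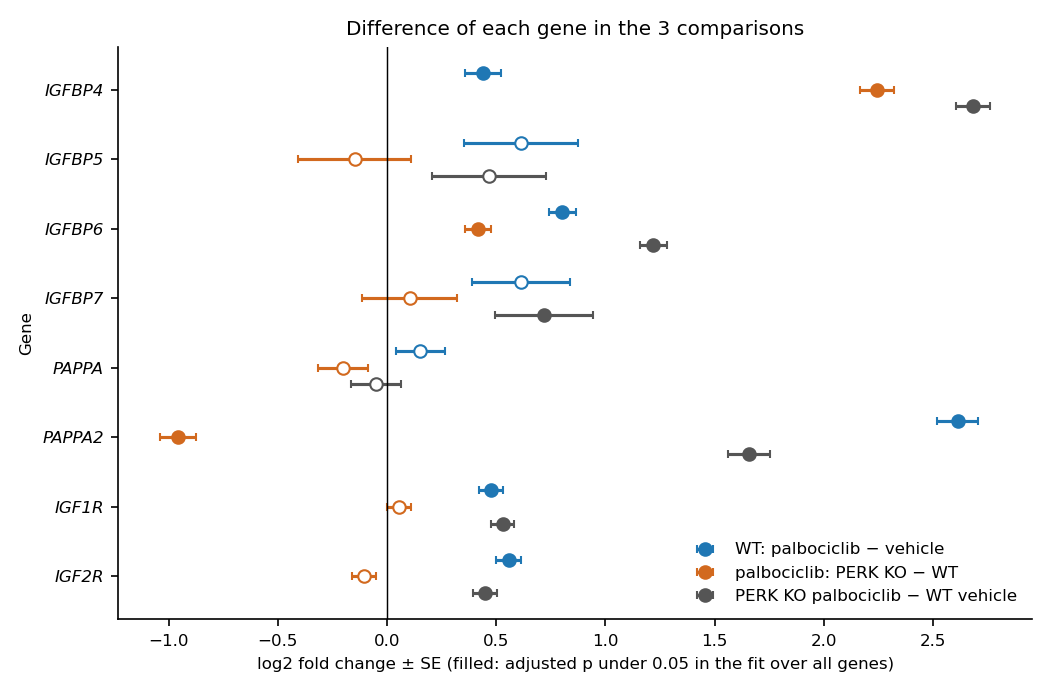
Log2 fold change ± SE of the 8 tested members in the 3 comparisons; filled points had an adjusted p under 0.05 in the fit over all genes, open points did not. PAPPA2 lies at 2.61 for the drug and -0.96 between genotypes, while IGFBP4 lies at 0.44 and 2.24.

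Levels of different genes were compared as RPKM, the CPM divided by exon length in kilobases, over the union of GENCODE exons. With vehicle, IGFBP6 (27.1 ± 2.5) and IGFBP5 (26.6 ± 8.4) were highest and overlapped, followed by IGF2R (15.9 ± 1.0) and IGF1R (14.9 ± 0.85), which also overlapped, then IGFBP4 (6.47 ± 0.83), IGFBP7 (4.22 ± 1.2), PAPPA (0.488 ± 0.012) and PAPPA2 (0.296 ± 0.012). In wild-type cells on the drug the order began in the same way, with IGFBP6 at 47.2 ± 1.4 and IGFBP5 at 40.7 ± 5.3, and PAPPA2 (1.81 ± 0.093) passed PAPPA (0.542 ± 0.027). In knockout cells on the drug IGFBP4 stood at 41.7 ± 3.0, below IGFBP6 at 63.1 ± 3.1 and beside IGFBP5 at 36.8 ± 5.2. Per length, then, IGFBP4 moved from the lower part of the order to the level of IGFBP5. The order of the genes within each group was the same when the longest transcript gave the length.

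Summed over IGFBP2 to IGFBP7, binding protein mRNA came to 56.7, 67.9 and 68.5 RPKM with vehicle (64.4 ± 6.6), 99.4, 102 and 108 in wild-type cells on the drug (103 ± 4.4) and 142, 154 and 149 in knockout cells on the drug (148 ± 6.1). The groups did not overlap. IGFBP4 made up 10.2 ± 2.4% of this sum with vehicle, 8.55 ± 0.72% in wild-type cells on the drug and 28.1 ± 2.3% in knockout cells on the drug. The share of IGFBP6 was 42.6 ± 8.5%, 45.9 ± 3.3% and 42.5 ± 1.4% in the same order, and that of IGFBP5 40.7 ± 9.5%, 39.4 ± 3.4% and 24.7 ± 3.1%. IGFBP7 held 6.47 ± 1.4%, 6.21 ± 0.65% and 4.65 ± 0.64%.

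**Figure D5:**
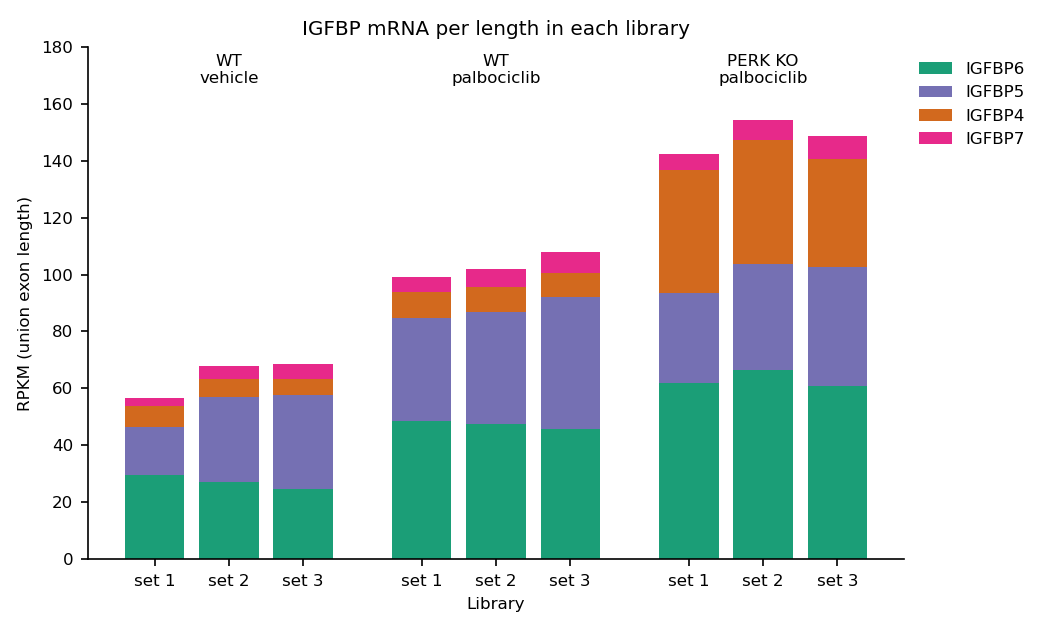
RPKM over union exon length of IGFBP4, IGFBP5, IGFBP6 and IGFBP7, stacked for each of the 9 libraries; IGFBP2 and IGFBP3 are too low to draw. The stacks reach 56.7 to 68.5 RPKM with vehicle, 99.4 to 108 in wild-type cells on palbociclib and 142 to 154 in knockout cells on palbociclib, where the IGFBP4 segment is widest.

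Genes with the most similar pattern were sought for the 3 members with the largest differences, among 10523 tested genes at a mean of 5 CPM or more, by Pearson's r of log2 CPM over the 9 libraries. For IGFBP4 these were the ribosomal scaffold gene RACK1 (r = 0.994), the glycolytic TPI1 (0.991) and the pyridoxal kinase gene PDXK (0.991). They differed far less between genotypes than IGFBP4, RACK1 by 0.31 and PDXK by 0.56. For PAPPA2 they were CTSA, a lysosomal carboxypeptidase gene (0.992), CHPF2, a chondroitin polymerizing factor gene (0.992), and CSTA, a cysteine protease inhibitor gene (0.991). CSTA stood at 6.33, 12.2 and 9.06 mean CPM in the vehicle, wild-type drug and knockout drug groups, an order like that of PAPPA2. For IGFBP6 they were STX4 (0.997), BCL2L13 (0.996) and HEBP1 (0.996), and HEBP1 stood at 39.9, 55.3 and 67.5 CPM. An r over 9 libraries in 3 groups mostly reflects the order of the group means.

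The other genes of the pathway came from 8 lists with 68 genes, of which 61 were tested. For the drug 20 were called higher and 10 lower, beside 21.3% and 22.3% of all genes tested. Between genotypes 15 were called higher and 14 lower, beside 14.9% and 13% of all genes. These shares are the background for each list below. Of the ligands, IGF2 alone was tested, at 31.0 ± 2.4, 42.4 ± 4.4 and 57.3 ± 8.3 CPM in the vehicle, wild-type drug and knockout drug groups. It rose by 0.45 ± 0.12 with the drug (edgeR adjusted p = 0.00963) and by 0.43 ± 0.11 between genotypes (edgeR adjusted p = 0.0163), as its carrier IGFBP6 was higher in both. The genotype call of IGF2 was lost without wild-type drug library 2 (0.43) or knockout library 2 (0.38). IGF1 had 0 to 4 counts per library, and INS had 0 in all 9. IGFBP1, a carrier beside IGFBP3 on chromosome 7, had at most 2 counts in a library.

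Among 12 tested carriers and IGFBP-domain proteins, 6 were called higher and 1 lower for the drug, and 3 higher and 4 lower between genotypes, with medians of 0.42 and -0.0030 beside -0.02 and 0.01 over all genes. CCN3, a matricellular protein gene, rose by 1.11 ± 0.069 with the drug (edgeR adjusted p = 2.29e-10). CCN5, of the same family, rose by 0.60 ± 0.22 between genotypes (edgeR adjusted p = 0.0470), a call lost in 10 of 15 alternative fits. Of 8 other proteases that can cut binding proteins, 5 were called higher and 0 lower for the drug, and 3 higher and 2 lower between genotypes, with medians of 0.30 and 0.14. The serine protease gene HTRA1, which is also in the carrier list, had 3.44, 9.34 and 13.2 mean CPM in the 3 groups in the order above. It rose by 1.45 ± 0.15 with the drug (edgeR adjusted p = 7.19e-07) and by 0.49 ± 0.13 between genotypes (edgeR adjusted p = 0.00921). ADAM12, a metalloproteinase that cuts IGFBP3 and IGFBP5, rose by 0.97 ± 0.096 (edgeR adjusted p = 1.18e-05) and by 0.55 ± 0.094 (edgeR adjusted p = 0.00121) in the same comparisons. In knockout cells HTRA1 and ADAM12 were thus higher while PAPPA2 was lower.

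Both tested pappalysin inhibitors, the stanniocalcins STC1 and STC2, fell between genotypes, as PAPPA2 did. STC1 stood at 9.78 ± 0.55, 15.0 ± 1.2 and 11.0 ± 0.64 CPM in the vehicle, wild-type drug and knockout drug groups. It rose by 0.62 ± 0.086 with the drug (edgeR adjusted p = 7.77e-06) and fell by 0.45 between genotypes (SE 0.086, edgeR adjusted p = 0.000433). STC2, at 0.662, 0.873 and 0.371 mean CPM, differed by 0.40 ± 0.25 with the drug (edgeR adjusted p = 0.210) and by -1.24 ± 0.28 between genotypes (edgeR adjusted p = 0.00202).

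Of 12 tested receptors, substrates and adaptors, 2 were called higher and 3 lower for the drug, and 1 higher and 3 lower between genotypes, with medians of 0.05 and -0.04. Against 21.3%, 22.3%, 14.9% and 13% of all genes these counts, from 12 genes, do not set the list apart. INSR, the insulin receptor gene and the relative of IGF1R, stood at 12.8, 13.0 and 14.8 mean CPM and was not called for the drug (0.02, edgeR adjusted p = 0.859) or between genotypes (0.19 ± 0.078, edgeR adjusted p = 0.0771), although the set block called it higher between genotypes (0.19 ± 0.072). IRS1, the docking protein of IGF1R, fell by 0.16 with the drug (SE 0.051, edgeR adjusted p = 0.0168) and rose by 0.23 ± 0.051 between genotypes (edgeR adjusted p = 0.00178). Its drug call was lost in a fit of only the groups compared (-0.13) and without vehicle library 2 (-0.15) or wild-type drug library 2 (-0.12) or 3 (-0.12). IRS2 had at most 1 count in a library. The adaptor gene SHC1 rose by 0.30 ± 0.049 with the drug (edgeR adjusted p = 5.01e-05) and GRB14, an inhibitory adaptor gene, differed by -0.55 ± 0.13 (edgeR adjusted p = 0.00203). GRB10, of the same adaptor family, differed by -0.45 ± 0.050 between genotypes (edgeR adjusted p = 8.04e-07).

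Of 10 PI3K and AKT genes, 3 were called higher and 2 lower for the drug and 4 higher and 0 lower between genotypes, with medians of -0.08 and 0.14. The regulatory subunit gene PIK3R3 rose in both, by 0.80 ± 0.059 (edgeR adjusted p = 2.33e-09) and 0.35 ± 0.057 (edgeR adjusted p = 8.61e-05). AKT1 rose by 0.25 with the drug (edgeR adjusted p = 0.000225) and PIK3CB by 0.32 between genotypes (edgeR adjusted p = 0.000194). Of 14 genes of mannose 6-phosphate sorting, in which IGF2R works, 3 were called higher and 3 lower for the drug and 2 higher and 3 lower between genotypes, counts near the background shares of 21.3%, 22.3%, 14.9% and 13%, with medians of -0.08 and -0.05. GNPTG, a subunit of the enzyme that makes the tag, rose by 0.47 ± 0.062 with the drug (edgeR adjusted p = 4.20e-06) and by 0.29 ± 0.061 between genotypes (edgeR adjusted p = 0.00110). The sorting adaptor genes GGA2, at -0.27 with the drug (edgeR adjusted p = 6.77e-05), and AP1S1, at -0.21 between genotypes (edgeR adjusted p = 0.00191), were lower. Of 3 IGF2 mRNA-binding proteins, IGF2BP1 differed by -0.67 ± 0.12 with the drug (edgeR adjusted p = 0.000107), and IGF2BP3 (0.83 ± 0.25, edgeR adjusted p = 0.0206) and IGF2BP2 (0.25 ± 0.052, edgeR adjusted p = 0.00102) rose between genotypes. The IGF2BP3 call was lost without library 2 or 3 of either drug group (0.53 to 0.87).

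Some markers of other cell types moved with the groups. The summed level of 8 epithelial markers was 33.0 to 35.0 CPM with vehicle, 32.4 to 33.2 in wild-type cells on the drug and 21.0 to 23.0 in knockout cells on the drug, where IGFBP4 was highest. Most of this sum came from 1 gene, CLDN4, at 23.0, 21.1 and 13.8 mean CPM. It differed by -0.62 ± 0.070 between genotypes (edgeR adjusted p = 1.16e-06) and was not called for the drug. EPCAM, at 5.32, 4.29 and 3.78 mean CPM, was not called in either comparison. Of 6 tested, 2 were called higher and 0 lower for the drug, and 0 higher and 3 lower between genotypes. The epithelial adhesion gene CDH1 stood at 1.62, 3.63 and 2.13 mean CPM in the vehicle, wild-type drug and knockout drug groups, the same order of groups as PAPPA2. It rose by 1.16 ± 0.15 with the drug (edgeR adjusted p = 4.63e-06) and differed by -0.77 ± 0.15 between genotypes (edgeR adjusted p = 0.000570). The keratin gene KRT5, near 1 CPM, differed by -0.71 ± 0.26 between genotypes (edgeR adjusted p = 0.0497), a call lost in 8 of 15 alternative fits.

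The 8 endothelial markers summed to 10.7 to 11.3, 13.4 to 14.4 and 15.0 to 16.2 CPM, the same order of groups as IGFBP6. Single markers did not all follow that order. ERG, the most abundant of the 8 in both wild-type groups, stood at 6.18, 4.34 and 4.97 mean CPM. Its drug difference was -0.51 ± 0.13 (edgeR adjusted p = 0.00297), the opposite direction to the sum. Of 6 tested, 2 were called higher and 1 lower for the drug, and 1 higher and 0 lower between genotypes. The receptor gene TIE1, the marker of this list that rose most in CPM, stood at 0.667, 3.51 and 5.18 mean CPM in the vehicle, wild-type drug and knockout drug groups. Its drug difference of 2.39 ± 0.19 (5.25-fold, edgeR adjusted p = 4.58e-09) was close in size to that of PAPPA2, and it rose by 0.56 ± 0.14 between genotypes (edgeR adjusted p = 0.00522). VWF, the von Willebrand factor gene, rose by 0.81 ± 0.16 with the drug (edgeR adjusted p = 0.000426). The 8 haematopoietic markers summed to 0.709 to 0.849, 1.00 to 1.15 and 1.04 to 1.44 CPM, with 3, 2 and 3 of them at 0 in all libraries of the group.

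The 8 osteosarcoma-line markers summed to 5122 to 5490, 7500 to 8579 and 7789 to 9556 CPM, of which COL1A1 (2467, 4133 and 4527 mean CPM) and SPARC (1732, 2731 and 3083 mean CPM) made up most. Of 6 tested, 5 were called higher and 0 lower for the drug, and 1 higher and 2 lower between genotypes. COL1A1, a collagen gene, rose by 0.74 ± 0.14 with the drug (edgeR adjusted p = 0.00365). The bone alkaline phosphatase gene ALPL rose by 1.51 ± 0.15 with the drug (edgeR adjusted p = 1.76e-07) and differed by -0.66 ± 0.14 between genotypes (edgeR adjusted p = 0.00160), the directions of PAPPA2. RUNX2, an osteoblast transcription factor gene, differed by -0.40 ± 0.11 between genotypes (edgeR adjusted p = 0.0202), a call lost without any 1 of the knockout libraries (-0.41 to -0.36). The part of these marker differences in the members' values was not tested.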

How the data were processed

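Poly(A) RNA of 9 libraries was sequenced, per the labels' protocols. The authors deposited raw, unpooled counts of reads per gene, with 1 column for each library. The build was hg38 and the tools included Trim Galore and STAR 2.7.9a, per the submitters' processing notes, which also list CASAVA, FastQC and DESeq2 and state no role for any of them. Which program counted the reads, with which strand setting and annotation, is not given in the sources used here. Of 70116 IDs, 42343 had a symbol of their own and 58261 were placed by GENCODE release 29 on GRCh38, which also gave exon lengths. IDs without such a symbol held 0.591 to 0.648% of counts.

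Counts were tested with edgeR 4.0.16 in R 4.3.3 (tables were prepared in Python 3.11.15), using the robust quasi-likelihood F test, TMM factors and the default filter on groups, which left 19408 genes with 99.9% of counts. A single model of the 3 groups was fitted to all 9 libraries (residual degrees of freedom 6, common coefficient of variation 5.99%). The threshold was a Benjamini-Hochberg adjusted p of 0.05 over all genes tested. The code was tested on simulated data. Replicates differed by more than sampling noise, with a chi-square of 3.73 to 12.0 for each degree of freedom.

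The members and 12 other gene lists (100 genes, all matched) were chosen with earlier results of these data known. Besides the members, the text names per list the 2 called genes with the largest difference at a mean of 1 CPM or more, EIF2AK3, and IGF1, IGF2, IGFBP1, STC1, STC2, INSR, IRS1 and IRS2. Nearest neighbours, the neighbours of IGFBP4 with the largest genotype differences, DNM3 near PAPPA2, other marker genes and genes overlapping a member are also named. Promoters came from RefSeq GRCh38.p14, where 9 of 10 members matched by symbol. IGFBP7 is named only. Motifs were searched on both strands, and overlapping matches were kept.

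The labels use the same set numbers in each group. After group means were removed, 12932 genes correlated at 0.176 to 0.54 in all 9 pairs with the same number and at -0.40 to 0.071 otherwise, so the numbers were taken to pair the libraries, a hint from the data and from no label. The model without the block had been set as the main one. Alternatives were the set as a block, RLE factors, DESeq2 1.42.0, limma-voom (limma 3.58.1), no filter, only the groups compared, each library left out, longest transcript length, and subtraction of neighbouring genes, of which the values on each side and those outside the genotype comparison were chosen after seeing the data, as were the alternatives for pathway and marker genes.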

Additional observations from a re-analysis of the deposited data

How the results depend on the processing

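Over the 8 tested members, 3 comparisons and 15 alternative fits, 344 of 360 differences kept their direction and their side of the threshold, 12 passed it, 3 lost it and 1 changed sign. The last was PAPPA for knockout on drug against vehicle, never called, which ran from -0.14 to 0.043 over the fits that leave out 1 library and was above 0 without knockout library 1. With the replicate block, which treats libraries of a set as paired, 2 members were called lower between genotypes, PAPPA2 and IGF2R, and 7 higher for the drug. The share of all genes called in that fit is not given here, so these counts have no background to be set against. Beside the changes given with IGFBP5, IGFBP7 and IGF2R, the block changed no call of a member. DESeq2 and limma-voom also called IGFBP5 (0.63 and 0.66) and IGFBP7 (0.62 and 0.66) for the drug, and limma-voom IGFBP5 for knockout on drug against vehicle (0.52). IGFBP7 was called for the drug with no filter (0.63), without vehicle library 3 (0.81) and without knockout library 1 (0.61). The genotype difference ran from 2.20 to 2.30 for IGFBP4 and from -1.01 to -0.92 for PAPPA2 over these fits, and the drug difference of PAPPA2 from 2.57 to 2.67. Of 450 alternative values of the named pathway genes, 427 kept direction and call. So did 139 of 150 of the marker genes named for the largest differences, and ERG, CLDN4 and EPCAM were not among these. INSR for the drug, not called, ran from -0.017 to 0.060 with 1 library left out. It was below 0 without vehicle library 1 (-0.017) or wild-type drug library 2 (-0.0066). For these changes the cause was not tested. Depth limits IGFBP2 and IGFBP3, whose differences were not detectable.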
